A study of Mus musculus with 5 samples.

Results

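Crypt stem and progenitor cell genes were compared between colon tumors of SIGLEC12 and Control mice. The set holds 10 genes, namely Lgr5, Ascl2, Olfm4, Smoc2, Cd44, Sox9, Myc, Ephb2, Ephb3 and Prom1, out of 52143 gene entries in the deposited table. They were found by their symbols, and each symbol occurred once. All 10 reached a TPM of at least 1 in at least 2 samples, the filter for testing, where TPM (transcript abundance scaled to a fixed total per sample) is the abundance of a gene per unit of length relative to all RNA of its sample. RNA-Seq was available here for tumors of 2 Control mice (replicates 1 and 4) and 3 SIGLEC12 mice (replicates 2, 3 and 4), whereas the series text speaks of 3 mice per condition. Both groups carried Villin1-Cre-ERT, a tamoxifen-inducible Cre recombinase under the promoter of Villin1, a gene of the intestinal columnar epithelium. SIGLEC12 mice carried in addition 1 floxed knock-in allele of human SIGLEC12 at the ROSA26 locus, and Control mice were littermates with Villin1-Cre-ERT only. Female mice were 8 weeks old at the start and received tamoxifen (10 mg/ml) for 5 days, 1 injection of the carcinogen azoxymethane (AOM, 10 mg/kg) and 4 cycles of 2.0% dextran sulfate sodium (DSS), an agent that damages the colonic lining. Each cycle was 5 days of DSS and 14 days of recovery, and tumors were taken on day 87. Expression of the human transgene was not analysed here, and the knock-in label is therefore taken as given.

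Colon crypts are renewed by stem cells at their base, whose progeny divide as progenitors and then differentiate as they move up the crypt. Wnt ligands and R-spondins keep the stem cell state, and many of its genes are targets of the Wnt effector complex of beta-catenin with TCF/LEF factors. In colon tumors these genes are commonly used to describe how much of the epithelium has a crypt-base character.

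Promoters of the members are shown because these genes are grouped as Wnt-driven crypt genes. Whether these sequences bear on the levels in these tumors was not tested. RefSeq promoters (GRCm38.p6) were found for 6 of the 10 genes, Ascl2, Cd44, Ephb2, Ephb3, Olfm4 and Prom1. Below are the 250 bases before the RefSeq start of Ascl2 (chr7:142969265-142969514, minus strand), of Prom1 (chr5:44101737-44101986, minus strand), of Olfm4 (chr14:80000052-80000301, plus strand) and of Cd44 (chr2:102901666-102901915, minus strand). Each is written along the strand of its gene. For each, the end next to the RefSeq start lies in an annotated transcript, so those bases may themselves be transcribed. The Olfm4 and Prom1 stretches lie within the gene bounds given below. Capitals mark CTTTG, the core of the TCF/LEF motif, read on either strand.
Ascl2: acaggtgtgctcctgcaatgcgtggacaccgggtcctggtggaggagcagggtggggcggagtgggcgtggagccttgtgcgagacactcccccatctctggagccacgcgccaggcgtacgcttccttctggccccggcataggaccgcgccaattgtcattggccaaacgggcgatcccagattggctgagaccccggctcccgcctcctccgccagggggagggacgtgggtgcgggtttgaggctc
Prom1: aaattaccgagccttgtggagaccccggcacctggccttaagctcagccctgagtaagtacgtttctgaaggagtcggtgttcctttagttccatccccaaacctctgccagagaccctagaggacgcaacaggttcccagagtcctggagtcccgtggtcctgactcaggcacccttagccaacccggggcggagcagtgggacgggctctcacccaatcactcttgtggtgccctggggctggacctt
Olfm4: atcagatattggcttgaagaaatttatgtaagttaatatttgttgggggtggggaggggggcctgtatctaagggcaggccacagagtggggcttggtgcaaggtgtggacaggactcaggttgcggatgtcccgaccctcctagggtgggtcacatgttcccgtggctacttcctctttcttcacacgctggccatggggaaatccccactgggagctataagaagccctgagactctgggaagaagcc
Cd44: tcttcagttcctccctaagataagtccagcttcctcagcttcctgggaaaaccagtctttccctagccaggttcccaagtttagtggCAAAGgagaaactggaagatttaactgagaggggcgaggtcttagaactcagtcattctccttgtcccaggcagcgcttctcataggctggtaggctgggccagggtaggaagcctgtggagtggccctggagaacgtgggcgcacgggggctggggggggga
The longer TCF/LEF motifs CTTTGAT and CTTTGAA, searched on both strands, were in 0 of these 6 genes' promoters and in 7.48% of all 32851 promoters of that length. At that share 6 genes are too few to read the 0 as a result about them. Sequence farther from the start was not searched. The core CTTTG, which both longer motifs contain, was in the promoter of 1 gene, Cd44, and in 48.6% of all promoters. Guanine and cytosine made up 67.6% of the Ascl2 promoter, 59.2% of the Prom1 promoter shown, 56.4% of the Cd44 promoter and 54.0% of the Olfm4 promoter, against a median of 52.4% over all promoters. Prom1 had a second promoter in the table (chr5:44094769-44095018, minus strand, not shown), with 50.8% guanine and cytosine and 3 CpG dinucleotides. The Ascl2 promoter held 19 CpG dinucleotides and that of Olfm4 held 4, where the median promoter held 6.

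All levels below are log2(TPM + 1) as deposited, and errors are SD between mice. A difference of 1 log2 unit is 2-fold on the TPM + 1 scale, which understates changes of low genes. Protein-coding genes took 5.70% and 6.73% of the TPM total in the Control samples and 8.74% to 9.71% in the SIGLEC12 samples, with 77.2% to 85.9% of the total in the 4 most abundant entries. The labels name a total RNA library kit and the study's methods an mRNA kit, and which of them made these libraries is not known here. The members summed to 44.6 and 47.7 TPM in Control and to 53.2, 54.2 and 59.9 TPM in SIGLEC12. Per 1000000 TPM of protein-coding genes they summed to 783 and 708 in Control and to 601, 620 and 617 in SIGLEC12. The order of the groups thus turned with the denominator, and levels on a scale set to equal protein-coding totals (the rescaled level) are given where they change a direction. The labels give an intended depth only, and TPM holds no read numbers, so the depth reached in each sample is unknown.

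Control replicate 1 stood apart from the other 4 samples in most members. It was the lowest sample for 8 of the 10 genes and the highest for the other 2, Olfm4 and Cd44. Of all 10338 genes tested it was the lowest for 70.8%, a share near that of the members, and the highest for 5.58%. It was barely the lowest for Myc (2.689 against 2.694 in SIGLEC12 replicate 3) and Ephb3 (1.633 against 1.634 in SIGLEC12 replicate 4). On the rescaled level Control replicate 1 had the highest Myc of the 5 samples, at 3.10. Rescaled Ephb3 was lowest in SIGLEC12 replicate 4, at 1.44. The Control samples lay at least 1 log2 unit apart in 6 members, against 9.25% of all genes tested. Control replicate 4 lay within the range of the 3 SIGLEC12 samples for 6 members, below it for Prom1 and Smoc2, and above it for Lgr5 and Olfm4. Of all 10338 genes tested, Control replicate 4 lay below that range for 6069 and above it for 905.

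**Figure D1:**
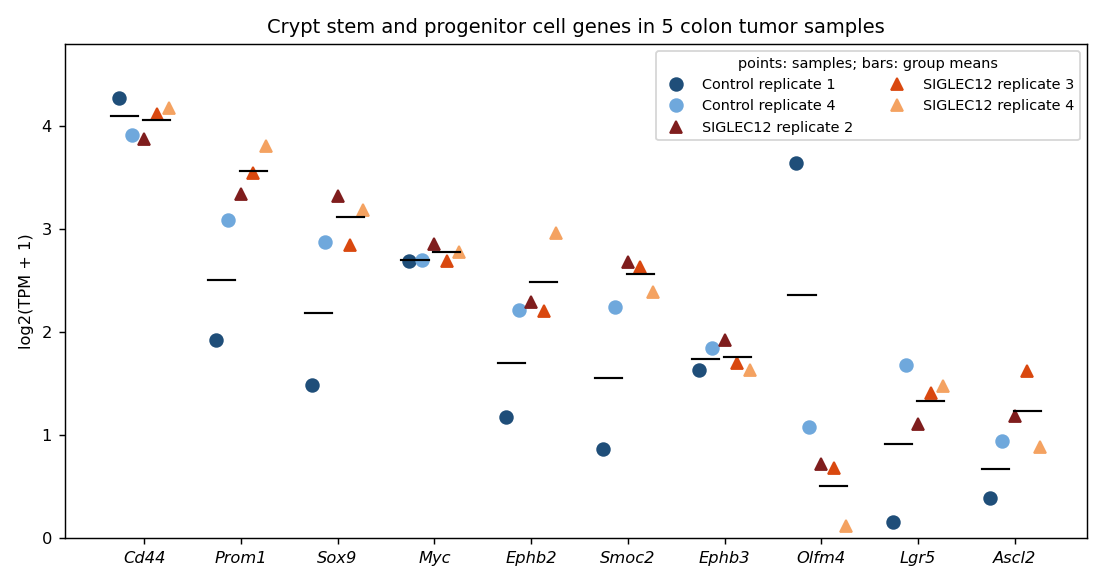
Levels of the 10 crypt stem and progenitor cell genes as log2(TPM + 1), ordered by their mean over the 5 samples. Circles are the 2 Control samples, triangles the 3 SIGLEC12 samples and bars the group means. Control replicate 1 is the lowest point for 8 genes and the highest for Cd44 (4.28) and Olfm4 (3.65).

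The receptors were examined first. Lgr5, the R-spondin receptor that marks crypt base stem cells (ENSMUSG00000020140, GRCm38 chromosome 10, 115450311 to 115587780, minus strand), was at 0.15 and 1.68 in Control replicates 1 and 4 and at 1.10, 1.41 and 1.47 in SIGLEC12 replicates 2, 3 and 4. The highest and the lowest sample were thus both Control tumors, with every SIGLEC12 sample between them. In TPM, Lgr5 was 0.110 and 2.20 in Control and 1.15, 1.65 and 1.77 in SIGLEC12. The means were 0.91 ± 1.08 (SD, n = 2) and 1.33 ± 0.20 (SD, n = 3), and the SIGLEC12 minus Control difference of 0.41 log2 units (SE of 0.43, limma adjusted p = 0.480) was smaller than the distance of 1.53 between both Control samples. Leaving out Control replicate 1 gave -0.35, and leaving out Control replicate 4 gave 1.18.

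Ephb2 and Ephb3 encode receptor tyrosine kinases for B-type ephrins that hold progenitors in the lower crypt. Ephb2 (ENSMUSG00000028664, chromosome 4, 136647539 to 136835988, minus strand) was at 1.18 and 2.22 in Control and at 2.29, 2.20 and 2.97 in SIGLEC12. Control replicate 1 was the lowest and SIGLEC12 replicate 4 the highest, with the other 3 samples close together. Its difference, SIGLEC12 minus Control, was 0.79 log2 units (SE of 0.37, limma adjusted p = 0.177), and it was 0.27 without Control replicate 1. Ephb3 (ENSMUSG00000005958, chromosome 16, 21204755 to 21223305, plus strand) varied little, standing at 1.63 and 1.84 in the Control tumors and at 1.93, 1.70 and 1.63 in the SIGLEC12 tumors. Its difference, SIGLEC12 minus Control, was 0.02 log2 units (SE of 0.17, limma adjusted p = 0.945) as deposited and -0.37 on the rescaled level, where all 3 SIGLEC12 samples lay below both Control samples.

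Cd44 (ENSMUSG00000005087, chromosome 2, 102811141 to 102901665, minus strand) encodes the hyaluronan receptor, found on crypt base cells but also on leukocytes, stromal cells and basal squamous cells. It was at 4.28 and 3.91 in Control and at 3.87, 4.12 and 4.18 in SIGLEC12, so the groups overlapped, and it was the most abundant member in every sample. Cd44 took 41.3% of the members' TPM in Control replicate 1 and 25.7% to 30.3% in the other 4 samples. The difference, SIGLEC12 minus Control, was -0.04 log2 units (SE of 0.23, limma adjusted p = 0.904) as deposited, 0.14 without Control replicate 1 and -0.56 on the rescaled level.

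The transcription factors differed among themselves. Ascl2, a Wnt-responsive basic helix-loop-helix factor that sets stem cell fate in the crypt (ENSMUSG00000009248, chromosome 7, 142966829 to 142969264, minus strand), was at 0.39 and 0.95 in Control and at 1.19, 1.63 and 0.88 in SIGLEC12. SIGLEC12 replicate 3 was the highest sample, and SIGLEC12 replicate 4 lay below Control replicate 4. The difference, SIGLEC12 minus Control, was 0.57 log2 units (SE of 0.28, limma adjusted p = 0.194), and it was 0.29 without Control replicate 1 and 0.34 on the rescaled level.

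Sox9, a factor of crypt base and progenitor cells (ENSMUSG00000000567, chromosome 11, 112782224 to 112787760, plus strand), was at 1.48 and 2.88 in Control and at 3.32, 2.85 and 3.19 in SIGLEC12. The upper Control sample lay inside the SIGLEC12 range. Its SIGLEC12 minus Control difference of 0.94 log2 units (SE of 0.41, limma adjusted p = 0.154) became 0.24 without Control replicate 1. Myc, which drives cell growth (ENSMUSG00000022346, chromosome 15, 61985391 to 61990374, plus strand), had the narrowest range of the 10 genes. It was at 2.69 and 2.70 in Control and at 2.85, 2.69 and 2.78 in SIGLEC12, a SIGLEC12 minus Control difference of 0.08 log2 units (SE of 0.17, limma adjusted p = 0.729). On the rescaled level the change of Myc was -0.39, with no overlap of the groups.

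Among the other membrane and secreted products, Prom1 and Smoc2 were the 2 members whose SIGLEC12 samples all lay above both Control samples. Prom1 encodes the membrane glycoprotein CD133 (ENSMUSG00000029086, chromosome 5, 43993620 to 44102032, minus strand). It was at 1.93 and 3.09 in Control and at 3.34, 3.55 and 3.81 in SIGLEC12. Means were 2.51 ± 0.82 (SD, n = 2) and 3.56 ± 0.23 (SD, n = 3), a SIGLEC12 minus Control difference of 1.06 log2 units (SE of 0.36, limma adjusted p = 0.111, exact permutation p = 0.1, the smallest that 2 against 3 samples allow). The difference was 0.47 without Control replicate 1 and 0.59 on the rescaled level, where the groups overlapped.

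Smoc2, which encodes a secreted calcium-binding matrix protein (ENSMUSG00000023886, chromosome 17, 14279506 to 14404790, plus strand), was at 0.86 and 2.24 in Control and at 2.68, 2.64 and 2.39 in SIGLEC12. Here too most of the distance came from Control replicate 1. The difference, SIGLEC12 minus Control, was 1.02 log2 units (SE of 0.39, limma adjusted p = 0.127, exact permutation p = 0.1), 0.33 without Control replicate 1 and 0.65 on the rescaled level. Fibroblast marker genes moved with the groups in part. Their 7 genes summed to 8.83 to 10.7 TPM in Control and 18.2 to 58.9 TPM in SIGLEC12, and their part in the Smoc2 levels was not tested. Dcn, which encodes the matrix proteoglycan decorin, was at 1.60 and 2.45 in Control and at 4.57, 3.43 and 3.33 in SIGLEC12. Col3a1, a fibrillar collagen gene, was at 1.79 and 1.87 in Control and at 4.13, 2.45 and 3.22 in SIGLEC12. Pdgfra and Pdgfrb were likewise higher without overlap, as were 54.1% of all genes tested. Col1a1, Col1a2 and Lum overlapped, with Col1a1 at 1.28 in SIGLEC12 replicate 3 against 1.62 and 1.48 in Control. The mean level of the 7 genes was 2.58 in SIGLEC12 replicate 2 against 1.40 and 1.76 in SIGLEC12 replicates 3 and 4.

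Olfm4 went the other way. It encodes a secreted glycoprotein of crypt base cells in the small intestine that is also made by neutrophils (ENSMUSG00000022026, chromosome 14, 79984081 to 80023139, plus strand). Its level was 3.65 and 1.07 in Control and 0.71, 0.68 and 0.11 in SIGLEC12, so both Control samples lay above all 3 SIGLEC12 samples. In TPM these were 11.5 and 1.11 against 0.641, 0.603 and 0.0799, and Olfm4 took 25.9% of the members' TPM in Control replicate 1 against 2.32% or less in the other 4 samples. The means were 2.36 ± 1.82 (SD, n = 2) and 0.50 ± 0.34 (SD, n = 3), a SIGLEC12 minus Control difference of -1.86 log2 units (SE of 0.69, limma adjusted p = 0.123, exact permutation p = 0.1). It was -0.57 without Control replicate 1, so the size of the difference rested mostly on that tumor. Neutrophil marker genes did not move as 1 group. S100a8, which encodes a calcium-binding protein of neutrophils, was at 3.46 and 2.18 in Control replicates 1 and 4 and at 2.49, 4.24 and 2.50 in SIGLEC12. Ly6g, a granulocyte surface antigen, was lowest in Control replicate 1 at 2.41 and lay between 3.95 and 5.52 in the other 4 samples. The other 3 genes, S100a9, Csf3r and Cxcr2, were like S100a8 higher in Control replicate 1 than in Control replicate 4, for example 2.75 against 2.16 for S100a9. All 5 summed to 21.6 to 25.0 TPM in Control, where Ly6g weighed most in replicate 4, and to 24.5 to 53.5 TPM in SIGLEC12. The part of neutrophils in the Olfm4 levels was not tested.

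The order of the members by mean level was Cd44 (4.07), Prom1 (3.14), Sox9 (2.75), Myc (2.74), Ephb2 (2.17), Smoc2 (2.16), Ephb3 (1.75), Olfm4 (1.25), Lgr5 (1.16) and Ascl2 (1.01). Cd44 was above Prom1, and Prom1 above Sox9, in 5 of 5 samples. Sox9 and Myc, Ephb2 and Smoc2, Olfm4 and Lgr5, and Lgr5 and Ascl2 did not keep their order in every sample, and neither did the remaining neighbours. Profiles centred on their own means were most alike for Myc and Ephb3, with a root-mean-square difference of 0.0989 log2 units over the 5 samples, and for Smoc2 and Sox9, with 0.20. Lgr5 was nearest to Ephb2 (0.33). Olfm4 was the farthest member from each of the other 9, and its own nearest was Cd44 at 1.17.

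Over the set, 8 of 10 members were higher and 2 lower on average in SIGLEC12 as deposited, where 87.2% of all genes tested were higher. With limma and Benjamini-Hochberg adjustment over all genes, 0 of the 10 had an adjusted p under 0.05, as did 0% of the 10338 genes tested, whose smallest adjusted p was 0.0974. Before adjustment, with p under 0.05, Prom1 and Smoc2 were higher, that is 2 of 10 against 33.4% of all genes tested, and Olfm4 was lower, 1 of 10 against 0.909%. These same 3 genes also met the threshold of the study's methods, an unadjusted p of at most 0.05 and a change of at least 2-fold, which 3.97% of all genes met upward and 0.445% downward. Without Control replicate 1 the differences of Prom1, Smoc2 and Olfm4 were 0.47, 0.33 and -0.57 log2 units, each under 2-fold. Without SIGLEC12 replicate 3 or SIGLEC12 replicate 4, 0 members met the threshold. In these fits 388 and 441 of the 10338 genes met it upward, and 51 and 75 downward. With all 5 samples, groups did not overlap upward in 2 members against 54.1% of all genes, and downward in 1 member against 1.67%. With so few members these shares are given as a description, and by the first and the last rule fewer members than genes overall were higher, while by the 2-fold rule more were.

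**Figure D2:**
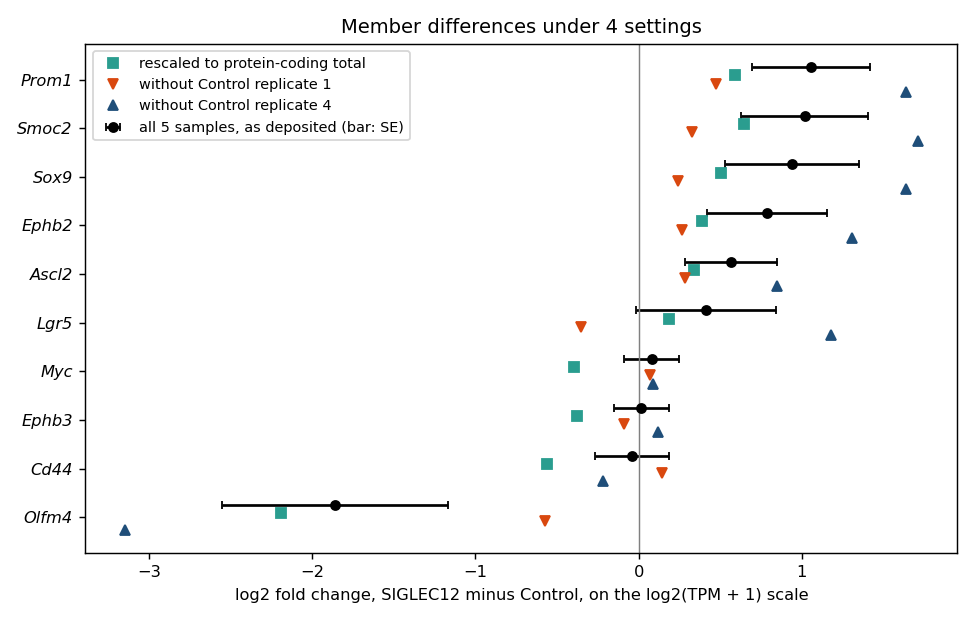
Log2 fold change of each member, SIGLEC12 minus Control, on the log2(TPM + 1) scale. Black circles with SE bars use all 5 samples as deposited, squares the level rescaled to equal protein-coding totals, and triangles the fits without Control replicate 1 (pointing down) or without Control replicate 4 (pointing up). Lgr5 lies at -0.35 without Control replicate 1 and at 1.18 without Control replicate 4, and Olfm4 is below 0 in all 4 settings.

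The median log2 fold change of the members was 0.49, beside 0.38 for all genes tested. On the rescaled level these medians were 0.26 and 0.01. There, 6 members were higher and 4 lower on average, and 51.1% of all genes tested were higher. At an unadjusted p under 0.05, 0 members were higher against 4.46% of all genes, and 3 were lower (Olfm4, Myc and Ephb3) against 6.28%. Groups did not overlap upward in 0 members against 15.7%, and downward in 4 members (the same 3 and Cd44) against 16.8%. The adjusted p was 0.456 or higher for each member on the rescaled level.

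The size of these differences depended on which Control tumor was kept. Without Control replicate 1 the median of the members was 0.19, beside 0.26 for all genes. Without Control replicate 4, which left Control replicate 1 as the only Control sample and assumed that it varied like the SIGLEC12 samples, the median was 1.01 beside 0.52 for all genes. In that fit 5 members (Lgr5, Olfm4, Smoc2, Sox9 and Prom1) had a limma adjusted p under 0.05, against 15.5% of all genes. With the level rescaled and Control replicate 1 left out, the median of the members was -0.20, beside -0.05.

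As deposited, columnar epithelium genes, like 8 of the members and 70.8% of all genes tested, were lowest in Control replicate 1. In bulk tumor RNA, fewer cells of a type and less RNA per cell cannot be told apart. The 11 genes of columnar epithelium had a mean level of 4.12 and 5.44 in Control and of 5.79, 5.74 and 6.31 in SIGLEC12. Krt19, a keratin of simple epithelium, was at 6.52 and 8.05 in Control replicates 1 and 4 and ranged from 8.30 to 9.23 in SIGLEC12. Lgals4, a galectin of the gut epithelium, was at 6.16 and 7.84 in Control and between 7.90 and 8.24 in SIGLEC12. The labelled colon tissue thus had its epithelial markers in every sample, and Control replicate 1 had the least of them. Squamous epithelium genes were also present in all 5 samples. Their 11 genes summed to 2658 TPM in Control replicate 1, 574 TPM in Control replicate 4 and 378 to 932 TPM in SIGLEC12. Krt14, a keratin of basal squamous cells, was at 10.16 in Control replicate 1 and between 5.69 and 7.64 in the other 4 samples, while Krt13 lay between 7.05 and 8.17 in all 5. The part of either epithelium in the levels of the members was not tested.

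**Figure D3:**
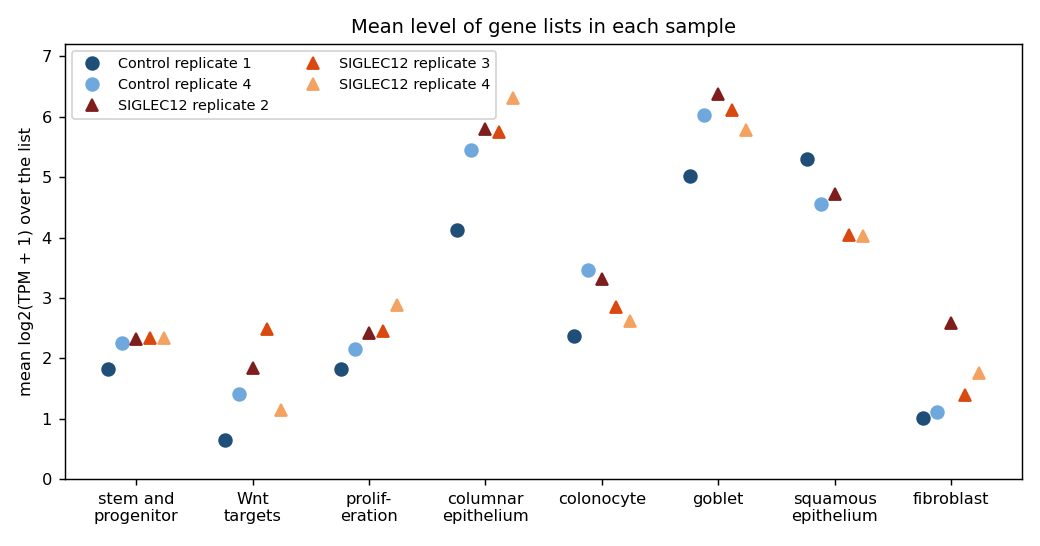
Mean log2(TPM + 1) over the genes of each list in each sample, with circles for Control and triangles for SIGLEC12. Control replicate 1 has the lowest mean for columnar epithelium (4.12) and for the stem and progenitor genes (1.82), and the highest for squamous epithelium (5.29).

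Each member was then expressed relative to the mean of the columnar epithelium genes in the same sample. All 10 members were lower on average in SIGLEC12 on this scale, with a median difference of -0.68 log2 units, beside -0.79 over all genes tested. The reference itself had a mean of 4.78 in Control and 5.95 in SIGLEC12, which lowers every gene on this scale. The count of lower members is therefore no result about the members. Groups did not overlap downward in 6 members (Lgr5, Olfm4, Cd44, Myc, Ephb2 and Ephb3), against 50.1% of all genes. For each of these the exact permutation p was 0.1 and, adjusted over the 10 members, 0.167. Prom1, Smoc2, Sox9 and Ascl2 overlapped, with differences of -0.11, -0.15, -0.23 and -0.60. Relative to columnar epithelium, Prom1 was at -2.19 and -2.35 in Control and at -2.45, -2.20 and -2.51 in SIGLEC12. A pseudocount of 0.1 reduced the median difference to -0.20. A pseudocount of 1 compresses low values more than high ones.

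The niche ligands, which act on crypt stem cells from the neighbouring stroma and epithelium, were mostly near 0. Of 13 R-spondin, Wnt and BMP antagonist genes, 9 stayed under 1 in every sample, the 4 R-spondin genes among them, and 3 entered the test. Wnt4 was at 2.32 and 1.32 in Control and at 1.23, 0.98 and 0.93 in SIGLEC12, a SIGLEC12 minus Control difference of -0.78 log2 units (SE of 0.30, limma adjusted p = 0.131), which was -0.28 without Control replicate 1. Wnt5a was between 0.81 and 1.73, and Grem1 was at 0.50 and 0.67 in Control and at 1.47, 0.70 and 1.73 in SIGLEC12. Of the 3 tested genes, 2 were higher on average in SIGLEC12 as deposited and 1 on the rescaled level. Of the ephrin-B ligands of Ephb2 and Ephb3, Efnb1 lay between 2.49 and 3.17 and Efnb2 between 1.91 and 2.49, with overlapping groups.

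The lists that follow are read beside all genes tested, of which 87.2% were higher on average as deposited and 33.4% were higher at an unadjusted p under 0.05, against 51.1% and 4.46% on the rescaled level. Receptors and effectors of the Wnt pathway were higher on average in SIGLEC12 for 12 of 13 tested genes as deposited and for 5 on the rescaled level, and 0 had an adjusted p under 0.05. At an unadjusted p under 0.05, 4 were higher and 0 lower as deposited, whereas rescaling left 0 higher and 1 lower. Ctnnb1, which encodes beta-catenin, was at 4.60 and 5.19 in Control and between 5.46 and 5.60 in SIGLEC12. Lgr4, the widely expressed relative of Lgr5, was at 2.79 and 3.33 in Control and at 3.96, 3.63 and 3.87 in SIGLEC12, so that its level was above that of Lgr5 in each sample.

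Wnt target and feedback genes differed widely among the SIGLEC12 tumors. Of 9 tested genes, 9 were higher on average as deposited and 8 on the rescaled level, 1 had an unadjusted p under 0.05 as deposited (0 on the rescaled level) and 0 an adjusted p under 0.05. Axin2, the feedback inhibitor of beta-catenin, was at 1.10 and 2.59 in Control and at 2.86, 3.27 and 2.27 in SIGLEC12. Ccnd1, which encodes cyclin D1, was at 2.13 and 2.90 in Control and at 3.40, 3.25 and 3.34 in SIGLEC12 (limma adjusted p = 0.104). SIGLEC12 replicate 3 was the highest sample for 8 of the 9 genes, against 19.7% of all genes tested. Ascl2 had the same order of samples as 7 of these 9 genes, namely SIGLEC12 replicate 3, SIGLEC12 replicate 2, Control replicate 4, SIGLEC12 replicate 4 and Control replicate 1, an order that 1.57% of all genes tested had. This order was looked for after the values were seen. The same holds for the choice of Notum and Nkd1, secreted and intracellular Wnt inhibitors. Notum was at 0.21 and 1.13 in Control and at 2.13, 3.38 and 0.60 in SIGLEC12, and Nkd1 at 0.20 and 1.64 in Control and at 2.42, 3.22 and 0.86 in SIGLEC12. Lgr5 did not have this order, being highest in Control replicate 4. Within SIGLEC12, Lgr5 was close in replicates 4 and 3, at 1.47 and 1.41 as deposited. On the rescaled level that order turned, to 1.29 and 1.32. SIGLEC12 replicate 4 had the lowest Notum and Nkd1 of that group.

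**Figure D4:**
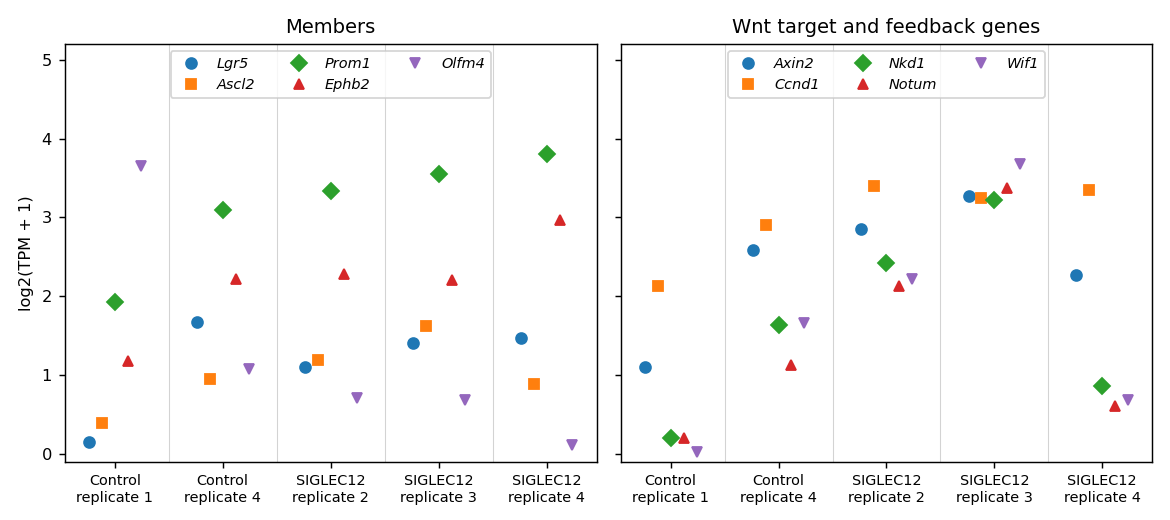
Levels as log2(TPM + 1) of 5 members (left) and 5 Wnt target or feedback genes (right) in the 5 samples, with 1 symbol per gene. Ascl2, Axin2, Nkd1, Notum and Wif1 are highest in SIGLEC12 replicate 3, whereas Lgr5 is highest in Control replicate 4, Prom1 and Ephb2 in SIGLEC12 replicate 4 and Olfm4 in Control replicate 1.

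Other genes of crypt base and reserve stem cells were higher on average in 8 of 8 tested genes as deposited and in 6 on the rescaled level, where the median was 0.22. At an unadjusted p under 0.05, 4 were higher and 0 lower as deposited, 0 were higher on the rescaled level, and 0 had an adjusted p under 0.05. Reg4, a marker of deep crypt secretory cells, was at 3.19 and 4.15 in Control and at 4.44, 4.72 and 5.53 in SIGLEC12. Cd24a, a surface glycoprotein of crypt base cells, was between 5.49 and 5.90 in all 5 samples with overlapping groups. Proliferation genes were higher on average in 18 of 18 as deposited, with an unadjusted p under 0.05 for 11 and an adjusted p under 0.05 for 0, and in 15 on the rescaled level, where the unadjusted p was under 0.05 for 1. Pcna, the DNA polymerase clamp, was at 3.04 and 3.43 in Control and between 3.78 and 4.13 in SIGLEC12, and Top2a, which encodes a topoisomerase of dividing cells, was at 2.76 and 3.25 in Control and at 3.59, 3.47 and 3.90 in SIGLEC12.

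Differentiated colonocyte genes were split, with 5 of 10 tested genes higher on average. Car1, a carbonic anhydrase of surface colonocytes, was at 4.98 and 6.70 in Control and at 5.89, 5.48 and 4.56 in SIGLEC12, and Car4, another carbonic anhydrase, was at 4.40 and 5.62 in Control and at 5.27, 4.13 and 3.58 in SIGLEC12. Goblet cell genes were higher on average for 7 of 7 as deposited and 3 of 7 on the rescaled level. Muc2, the main secreted mucin, lay between 6.74 and 8.47, and Zg16, a goblet cell lectin, between 6.49 and 8.04. Smooth muscle genes were higher for 5 of 6 as deposited and 2 on the rescaled level, and macrophage genes for 4 of 4 on both. The smooth muscle genes Tagln and Acta2 lay between 3.38 and 4.63 and between 3.14 and 4.67, and the complement genes C1qa and C1qb of macrophages between 0.63 and 1.96 and between 0.84 and 2.05. Genes of endothelium, T cells, B and plasma cells, and nerve and glia did not reach the filter.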

How the data were processed

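RNA-Seq values came from 1 deposited table of colon tumors of 2 Control and 3 SIGLEC12 mice. The authors deposited log2 values of TPM + 1 over all annotated RNA, since each sample's back-transformed values summed to 1000000. The submitters' processing notes name kallisto 0.45.0 and GRCm38, whereas the study's methods name another kallisto version, a human reference and 3 technical libraries per sample. How libraries were joined is not given in the sources used here. Value columns of no sample numbered 0. Coordinates and biotypes came from GENCODE release M21 (GRCm38), which held 98.29% of the gene identifiers, and promoters from RefSeq.

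Genes with a TPM of at least 1 in at least 2 samples were tested with limma 3.58.1 (lmFit, eBayes with trend, no covariate) in R 4.3.3 on log2(TPM + 1), where the pseudocount understates changes of low genes. Adjusted p-values are Benjamini-Hochberg over all genes tested. The study's methods name DESeq2 on counts, which was not used because the deposited table holds none. Rescaled levels divide each sample's TPM by its protein-coding total over the mean total. Exact permutation tests of single values (scipy 1.17.1, two-sided) counted absolute differences over the 10 assignments of 5 samples to groups of 2 and 3. Relative levels subtract the mean log2(TPM + 1) of 11 columnar epithelium genes. The fit was tested on simulated data. Nothing says whether a sample pools several tumors of a mouse, and p-values measure only the spread between these samples.

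The members and gene lists were chosen with earlier results of these data known. All members are named, and from each other list the 2 tested genes with the highest mean level. Notum, Nkd1, Wif1, S100a9, Csf3r, Cxcr2, Grem1, Col1a1, Col1a2, Lum, Pdgfra and Pdgfrb were added after their values were seen. Alternatives were other scalings, pseudocounts, filters, sample weights and leaving out each sample.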

Additional observations from a re-analysis of the deposited data

How the results depend on the processing

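Olfm4 stayed lower and Ascl2 and Prom1 stayed higher in SIGLEC12 in every alternative fit that tested them. The filter of 5 TPM left out Ascl2 and Olfm4. On the rescaled level without Control replicate 1, Ascl2 and Prom1 were at just 0.065 and 0.085. Relative to columnar epithelium both were lower on average in SIGLEC12, with differences of -0.60 and -0.11, where the median over all genes tested was -0.79. Of 115 values of single members under alternatives, 95 kept their direction and their side of the adjusted threshold, 15 turned and 5 became past it. The cause was not tested. On the rescaled level 0 members were higher at an unadjusted p under 0.05 and 1 was past that p and 2-fold, with Myc at -0.39 and Ephb3 at -0.37. Of all 10338 genes, 461 were higher at that p there, and 38 upward and 142 downward were past 2-fold too. After quantile normalization the member counts were again 0 and 1, beside 610 genes higher, and 45 upward and 131 downward past 2-fold. The median of the members was then 0.19, Myc was at -0.38 and Ephb3 at -0.33. Without a filter both member counts were 1. Of 34310 genes 4005 were then higher, and 359 upward and 45 downward were past 2-fold. The median was 1.09 with a pseudocount of 0.1 and 0.94 with a filter of 5 TPM, which left fewer members. Relative to columnar epithelium, the median was -0.20 with a pseudocount of 0.1. The core CTTTG was in 1 member's promoter, the longer motif in 0.

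Leaving out each sample in turn gave 0 to 5 members at the adjusted threshold, 0 to 6 higher at the unadjusted p, and 0 to 6 past that p and 2-fold, the last being 0 without Control replicate 1, SIGLEC12 replicate 3 or SIGLEC12 replicate 4. The upper ends came from the fit without Control replicate 4, where more genes of the whole table passed as well. The swing was thus not confined to the members. Without SIGLEC12 replicates 2, 3 and 4 in turn, 1, 0 and 1 members were higher at the unadjusted p. Beside them, 2118, 2305 and 2362 of the 10338 genes tested were higher. Over all 5 such fits the median of the members ranged from 0.19 to 1.01, beside 0.26 to 0.52 for all genes. Relative to columnar epithelium it ranged from -0.90 to -0.32. Single members ranged from -0.35 to 1.18 for Lgr5, from -0.22 to 0.14 for Cd44 and from -0.088 to 0.12 for Ephb3. An alternative chosen after seeing the data, the rescaled level without Control replicate 1, gave a median of -0.20, with Lgr5 at -0.63, Smoc2 at -0.022, Sox9 at -0.14, Myc at -0.30, Ephb2 at -0.084 and Ephb3 at -0.40. No paired analysis was possible because neither the labels nor the study's text pairs single Control and SIGLEC12 mice. With 2 Control samples that differ in most members, and no read depth, small differences could not be resolved.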
